A study of Argopecten irradians concentricus with 9 samples.

Results

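The comparison set adductor muscle of bay scallops (Argopecten irradians concentricus) kept away from room temperature, in either direction, against muscle of scallops at room temperature, and asked which genes and functions moved the same way in warm and in cold water. The high temperature group (3 libraries) and the low temperature group (3 libraries) were pooled as 6 libraries of the extremes and set against the 3 room temperature libraries. All animals were 1 year old, and no strain or treatment other than temperature is given in the labels. The labels give neither degrees nor the length of exposure. RNA was extracted tank by tank, but whether a group's libraries stand for separate tanks or animals is not given, so the p-values measure only the spread between these libraries, which may be technical. FPKM here are fragments per kilobase of model, scaled by a size factor per library and not by total reads. Of 28864 gene models in the table, the 8624 with a mean of at least 1 FPKM over the 9 libraries were compared. The model just inside that threshold, a match to cytochrome P450 3A11, had a mean of 1.0001 FPKM, and a galactosyltransferase match just outside had 0.9992 FPKM. A protein name was paired with 5774 of the 8624 models, a Pfam domain alone with 737, and neither with 2113. Names are best matches in other species, so a name states similarity and the roles given below are those of the matched proteins.

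The adductor is the muscle that closes the shell, and in scallops its striated part powers swimming. Protein quality control in such a muscle rests on chaperones, which fold proteins and hold unfolded ones, and on the proteasome, a barrel of alpha and beta rings with a regulatory cap that unfolds and feeds in ubiquitin-tagged proteins. Its fuel comes from phosphoarginine and glycogen during bursts, with octopine as a glycolytic end product in scallops, and from mitochondrial oxidation of carbohydrate, fat and amino acids during recovery. Temperatures above and below the optimum are both known to load these systems in molluscs.

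Assigned reads numbered 11716140 to 16229040 per library. The 50 most abundant models took from 50.28% of the reads in high temperature replicate 1 to 62.51% in high temperature replicate 3. On the first principal component high temperature replicate 3 stood at -52 and the other 8 libraries at -13.8 to 28.5. On the second component low temperature replicate 3 stood at 42.9, and the room temperature libraries, at -21.1, -20.9 and -13.2, were below every other library. The muscle markers identified the tissue: their summed level was 73608 to 197388 FPKM at the extremes and 97313 to 124657 FPKM at room temperature. Summed FPKM over all models also differed, from 492312 in low temperature replicate 1 to 1157870 in high temperature replicate 3. The marker sums, here and below, were not adjusted for that. No model carried the name troponin T or tropomyosin, and the twitchin match was at 0.166 FPKM or less. Summed markers of other tissues overlapped between the groups: those of cilia were at 12.9 to 29.3 FPKM at the extremes and 19.4 to 31.7 FPKM at room temperature, and those of digestive gland at 200 to 624 FPKM at the extremes and 326 to 654 FPKM at room temperature. The digestive gland sum was mostly cathepsin L, at 193 to 650 FPKM over the 9 libraries. Trypsin, chymotrypsin, amylase and cellulase matches were each at 7.63 FPKM or less. Gonad markers were at 6.8 to 12.6 FPKM at the extremes and 6.15 to 9.24 FPKM at room temperature, and nerve markers at 10.1 to 16.4 FPKM at the extremes and 6.94 to 19.8 FPKM at room temperature. Shell and mantle markers were at 7.01 to 13.7 FPKM at the extremes and 10.1 to 20.9 FPKM at room temperature. Of the markers sought in those tissues, 11 of 69 models of cilia, 10 of 48 of digestive gland, 1 of 10 of gonad, 1 of 19 of nerve and 11 of 36 of shell and mantle were at 0 in every library, and the nanos and nacrein matches were among them.

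Few genes separated both extremes from room temperature beyond the test. A single limma fit to log2(FPKM + 1) over all 9 libraries called 2 models lower and 0 higher at a Benjamini-Hochberg adjusted p under 0.05, or 0.0232% and 0% of those tested. Without adjustment, 387 models (4.49%) lay lower and 317 (3.68%) higher at a p under 0.05. Those are the shares to set beside the list counts at an unadjusted p below. Taken singly, high temperature against room temperature called 0 models (0%), low temperature against room temperature 13 (0.151%), and high against low temperature 14 (0.162%). Dividing by total reads turned that split to 157 lower and 203 higher, and upper quartile scaling to 279 lower and 391 higher. The 6 libraries of the extremes lay wholly below the room temperature libraries in 170 models (1.97%) and wholly above them in 144 (1.67%). An unadjusted p under 0.05 at high and at low temperature separately, in the same direction, held for 72 models lower (0.835%) and 87 higher (1.01%). High and low temperature share the room temperature libraries, so a room temperature library that departs from the others moves both differences the same way. In a simulation of this comparison, with 200 of 8624 genes changed, 26.6% of 2-fold changes, 83.6% of 4-fold changes and 100% of 8-fold changes were called. The changed genes were drawn only from models with a mean of at least 5 FPKM, which 3364 of the 8624 reached. Both extremes were given the same change. The rates therefore do not cover models of lower mean level or changes that differ between the extremes.

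The models with the same direction at both extremes differed in make-up from each other. Those lower at both extremes carried a protein name in 52 of 72 cases (72.2%), and those higher in 41 of 87 (47.1%), against 67% of all models tested. Models outside the table's main gene set made up 2.78% of the lower ones, 17.2% of the higher ones and 12.3% of all tested. The lower ones had a median length of 1188 bases and a median mean level of 4.5 FPKM, the higher ones 1944 bases and 3.06 FPKM, and all tested 1806 bases and 3.45 FPKM. The 95% interval of the high minus low difference held 0 in 67 of the 72 and 84 of the 87, and it reached a median of 0.65 (lower models) and 0.67 (higher models) to either side on the log2 scale, so smaller differences between the extremes would mostly not show.

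Both models that passed the test encode secreted or surface proteins of cell signalling and matrix remodelling. The match to growth/differentiation factor 15 (evm.TU.Contig121.73, on contig 121 from 1920250 to 1925592, minus strand), a secreted stress-responsive cytokine of the TGF-beta family in mammals, fell at the extremes. It had 1.55, 2.11 and 3.1 FPKM at high temperature and 0.0243, 0.0335 and 0.0417 FPKM at low temperature, against 18.6, 4.92 and 9.51 FPKM at room temperature. Every library of the extremes lay below every room temperature library, and the low temperature libraries rested on 3 reads in all, against 197 at high and 1150 at room temperature. The pooled log2 change was -2.56 (95% interval -3.29 to -1.83, limma adjusted p = 0.0478). The 2 extremes shared the direction and differed in size, with log2 changes of -1.74 at high and -3.37 at low temperature, a difference of 1.63 (95% interval 0.79 to 2.47) that did not pass over all genes (limma adjusted p = 0.146). Against room temperature on its own, low temperature passed (limma adjusted p = 0.00902) and high temperature did not (limma adjusted p = 0.315).

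The match to ADAM family mig-17 (evm.TU.Contig7.21, contig 7 from 277069 to 283471, plus strand), a secreted metalloprotease that remodels basement membranes in the nematode Caenorhabditis elegans, fell as well. Its levels were 2.05, 1.39 and 1.62 FPKM at high temperature and 0.892, 0.542 and 0.674 FPKM at low temperature, against 5.84, 4.04 and 6.58 FPKM at room temperature. The groups did not overlap, and the pooled log2 change was -1.59 (95% interval -2.05 to -1.13, limma adjusted p = 0.0478). Taken singly, the limma adjusted p was 0.293 at high and 0.0131 at low temperature. Both calls were near the threshold: over the 21 alternatives in which each was tested, the GDF15 match was called in 7 and the mig-17 match in 2, and every alternative kept both below 0. Leaving out any 1 of the 6 libraries of the extremes ended both calls, and so did leaving out room temperature replicate 1 or replicate 3. Without room temperature replicate 2 the GDF15 match was called (limma adjusted p = 0.0134) and the mig-17 match was not (limma adjusted p = 0.0764). For both models the exact two-sided permutation p was 0.0119, the smallest that the 84 splits of 9 libraries can give.

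**Figure D1:**
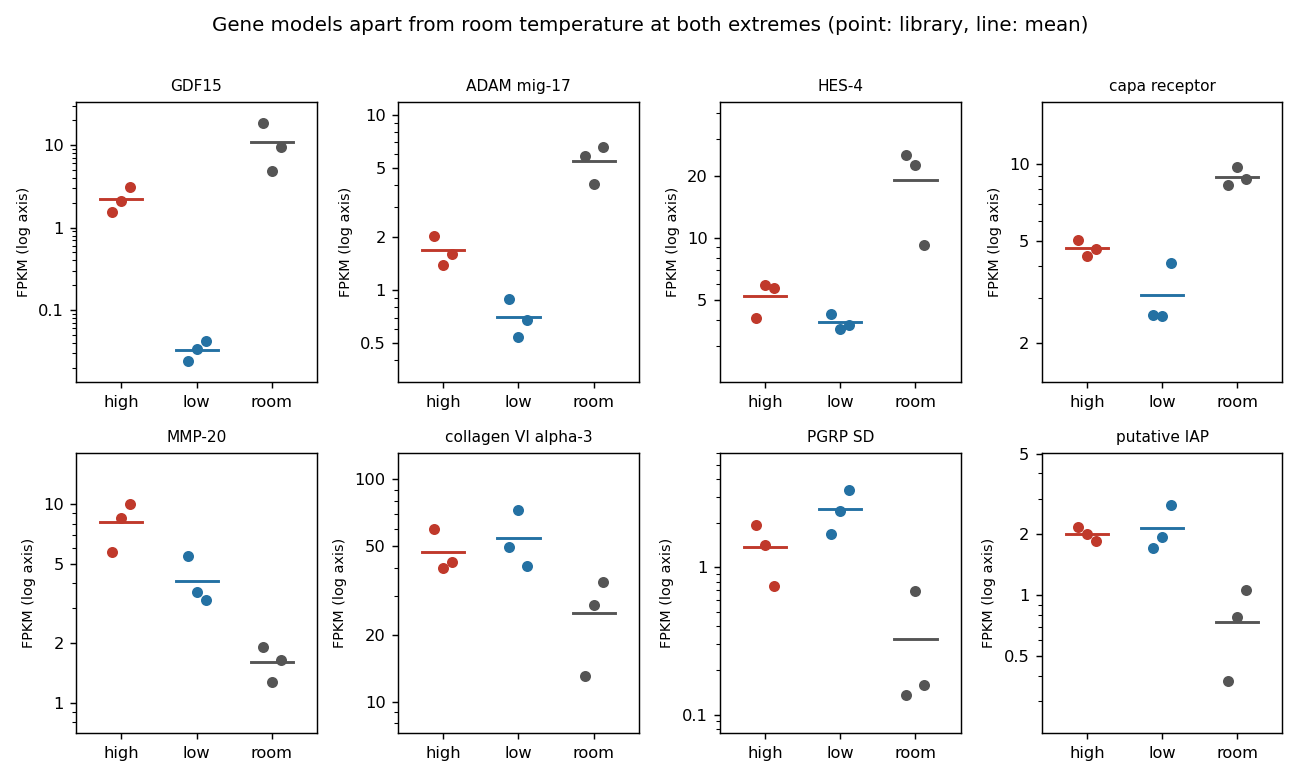
FPKM on a log axis in each library (points) with group means (lines) for 8 gene models, with high, low and room temperature from left to right. In each of the 8 the libraries of both extremes lie on the same side of all 3 room temperature libraries; the GDF15 match is lowest at low temperature, at 0.0243 to 0.0417 FPKM.

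Other signalling and matrix genes of the same pattern did not pass the test over all genes. Transcription factor HES-4, a repressor that acts downstream of Notch, had 4.08, 5.89 and 5.73 FPKM at high and 4.3, 3.62 and 3.79 FPKM at low temperature, against 25.3, 22.5 and 9.26 FPKM at room temperature (log2 change -1.75, limma adjusted p = 0.158). The room temperature mean was 4.16 times the mean of the extremes, and the groups did not overlap; without room temperature replicate 3 the change passed (limma adjusted p = 0.0311). The match to neuropeptides capa receptor, a G protein-coupled receptor for capa peptides in insects, averaged 4.7 ± 0.325 FPKM at high and 3.08 ± 0.902 FPKM at low temperature, against 8.91 ± 0.74 FPKM at room temperature (SD, n = 3 each), a pooled log2 change of -1.05 (limma adjusted p = 0.258). In the other direction, matrix metalloproteinase-20, a secreted protease known from enamel matrix in mammals, had 5.73, 8.58 and 10.1 FPKM at high and 5.48, 3.61 and 3.31 FPKM at low temperature, against 1.92, 1.27 and 1.64 FPKM at room temperature (log2 change 1.37, limma adjusted p = 0.158). Among 58 signalling ligands and receptors, 5 lay lower (8.62%, against 4.49% of all models) at an unadjusted p under 0.05, 1 of them called. Another 5 lay higher (8.62%, against 3.68%), and the median was 0.09, against -0.04 over all models tested. Over the 3 other scalings the lowest counts were 2 lower and 1 higher. Of 22 metalloproteinases 2 lay lower (9.09%) at an unadjusted p, 1 of them called, and 1 lay higher (4.55%).

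Several more leading models lay on the same side of room temperature at both extremes, some by nearly the same amount. Cytosolic Fe-S cluster assembly factor nubp1, a scaffold for iron-sulphur clusters of cytosolic and nuclear enzymes, had 1.68, 2.79 and 1.86 FPKM at high and 2.73, 2.24 and 1.65 FPKM at low temperature, against 5.52, 4.98 and 5.22 FPKM at room temperature. Its log2 changes were -1.02 at high and -0.97 at low temperature (pooled limma adjusted p = 0.31). TMEM242, a transmembrane protein and assembly factor of mitochondrial ATP synthase in human cells, averaged 13.9 FPKM at the extremes and 30.7 FPKM at room temperature, with log2 changes of -1.51 at high and -0.76 at low temperature. The amino acid transport protein rBAT, a transporter subunit, averaged 0.779 FPKM at the extremes and 2.84 FPKM at room temperature, and crystal protein 63.8 FPKM at the extremes and 139 FPKM at room temperature. The fibrinogen-like protein A match had 3.45, 4.67 and 2.23 FPKM at high and 2.84, 2.86 and 4.54 FPKM at low temperature, against 1.6, 0.522 and 1.28 FPKM at room temperature. Also higher at both were Ras-related protein Rab-5C of early endosomes (3.05 FPKM at the extremes, 1.05 at room temperature), probable nucleoredoxin 1, a thioredoxin-like protein (2.46 FPKM at the extremes, 0.629 at room temperature), and the match to disrupted in renal carcinoma protein 2, a membrane transporter (1.85 FPKM at the extremes, 0.58 at room temperature). Zinc finger protein ush, a FOG-family cofactor of GATA factors in Drosophila, had log2 changes of 0.4 at high and 1.26 at low temperature. None of these passed over all genes; the lowest of their adjusted p was 0.31.

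**Figure D2:**
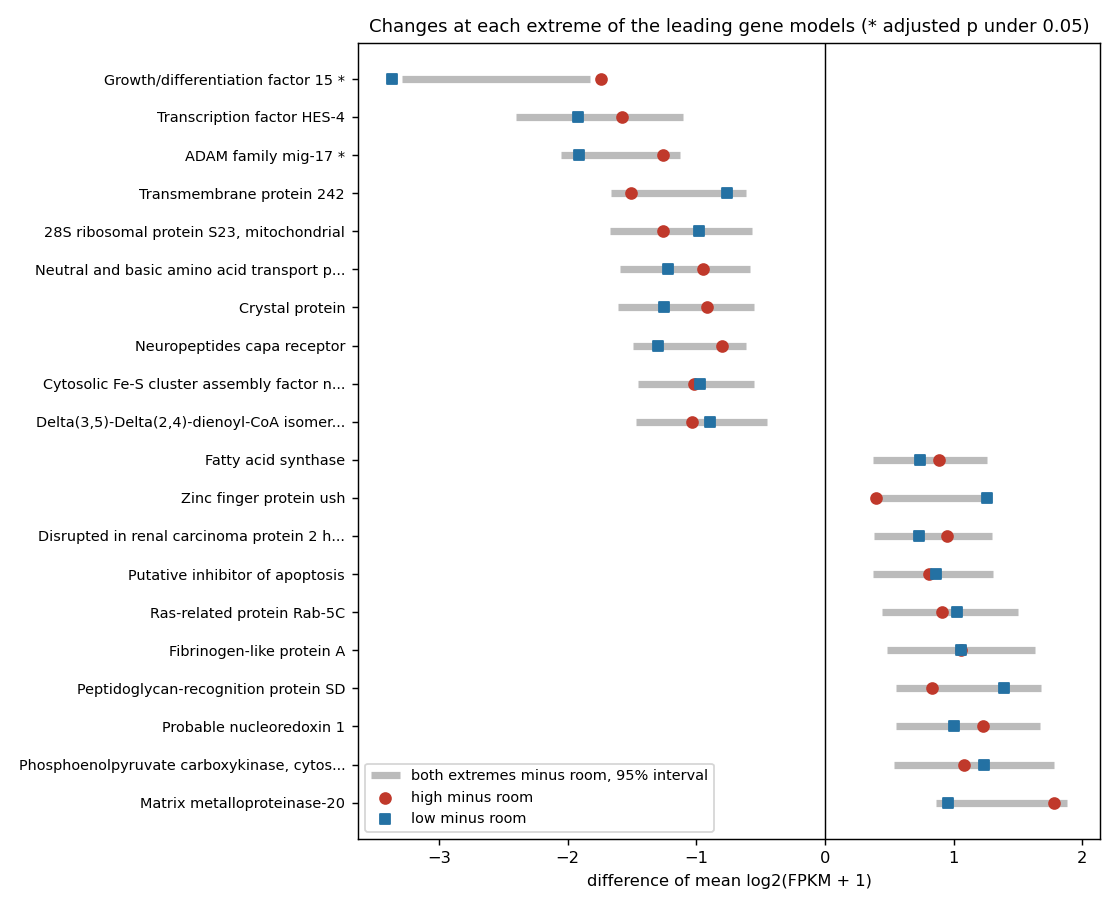
Log2 changes (difference of mean log2(FPKM + 1)) at high (circles) and low temperature (squares) against room temperature for the 20 leading gene models with a protein name, with the 95% interval of the pooled change as a bar. All 20 lie on 1 side of 0 at both extremes, which the rule that chose them requires; the 2 with an asterisk passed at an adjusted p of 0.0478.

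Proteasome genes lay lower at both extremes as a group, without any single one passing. Of 30 proteasome models, 29 had a pooled log2 change below 0, from -0.88 to 0.27 with a median of -0.48, and 26 of the 30 were below 0 at each extreme. Over all models tested 4741 of 8624 (55%) had a pooled change below 0, and 3405 of the 5774 with a protein name (59%). Those are the shares to set beside the pooled counts here and below. The share of all models below 0 at each extreme was not counted. Counts at each extreme, here and below, therefore have no share beside them. At an unadjusted p under 0.05, 9 of 30 (30%) lay lower and 0 higher, beside 4.49% and 3.68% of all models tested; 0 of 30 passed over all genes, and 0 of 30 had an unadjusted p under 0.05 at each extreme. The medians were -0.37 at high and -0.46 at low temperature, beside -0.03 and -0.04 over all models tested. Dividing by total reads, or voom on the recovered reads, left 0 of 30 at an unadjusted p under 0.05 but kept 29 of 30 below 0; the upper quartile left 3. Without room temperature replicate 3 the count was 1 of 30, and without high temperature replicate 1 it was 2. High temperature replicate 1 had the lowest share of reads in the 50 most abundant models, and the part of that in these values was not tested.

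By place in the complex, all 7 alpha ring subunits lay below 0 at each extreme, with a median pooled change of -0.49. Proteasome subunit alpha type-3 had 18.1, 20.9 and 16.4 FPKM at high and 19.5, 19.6 and 20.9 FPKM at low temperature, against 28.3, 29.8 and 26.9 FPKM at room temperature (log2 change -0.54, limma adjusted p = 0.512). The lowest room temperature library lay above the highest of the extremes by more than the whole range of the extremes. Of the 7 beta ring subunits, which carry the proteolytic sites, 7 lay below 0, and beta type-2 had 10.7, 17.4 and 5.69 FPKM at high and 12.2, 16.6 and 10.9 FPKM at low temperature, against 17.4, 20.4 and 30.5 FPKM at room temperature. That subunit's highest library of the extremes only just missed the lowest room temperature one. Of the 13 non-ATPase subunits of the cap, 12 lay below 0 with a median of -0.34, and subunit 1 lay above 0 (22.8 FPKM at the extremes, 18.3 at room temperature). The 6 ATPases of the cap, named 26S protease regulatory subunits and not caught by the words of the list, were added after their values were seen: all 6 lay below 0 at each extreme, from -0.75 for 6B to -0.18 for subunit 4. Subunit 6B averaged 4.76 FPKM at the extremes and 8.7 FPKM at room temperature without overlap. The wider ubiquitin system, ligases and proteases that tag and untag proteins, gave 7 of 204 models lower and 1 higher at an unadjusted p, and its median of -0.05 changed sign under other scalings (up to 0.01).

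**Figure D3:**
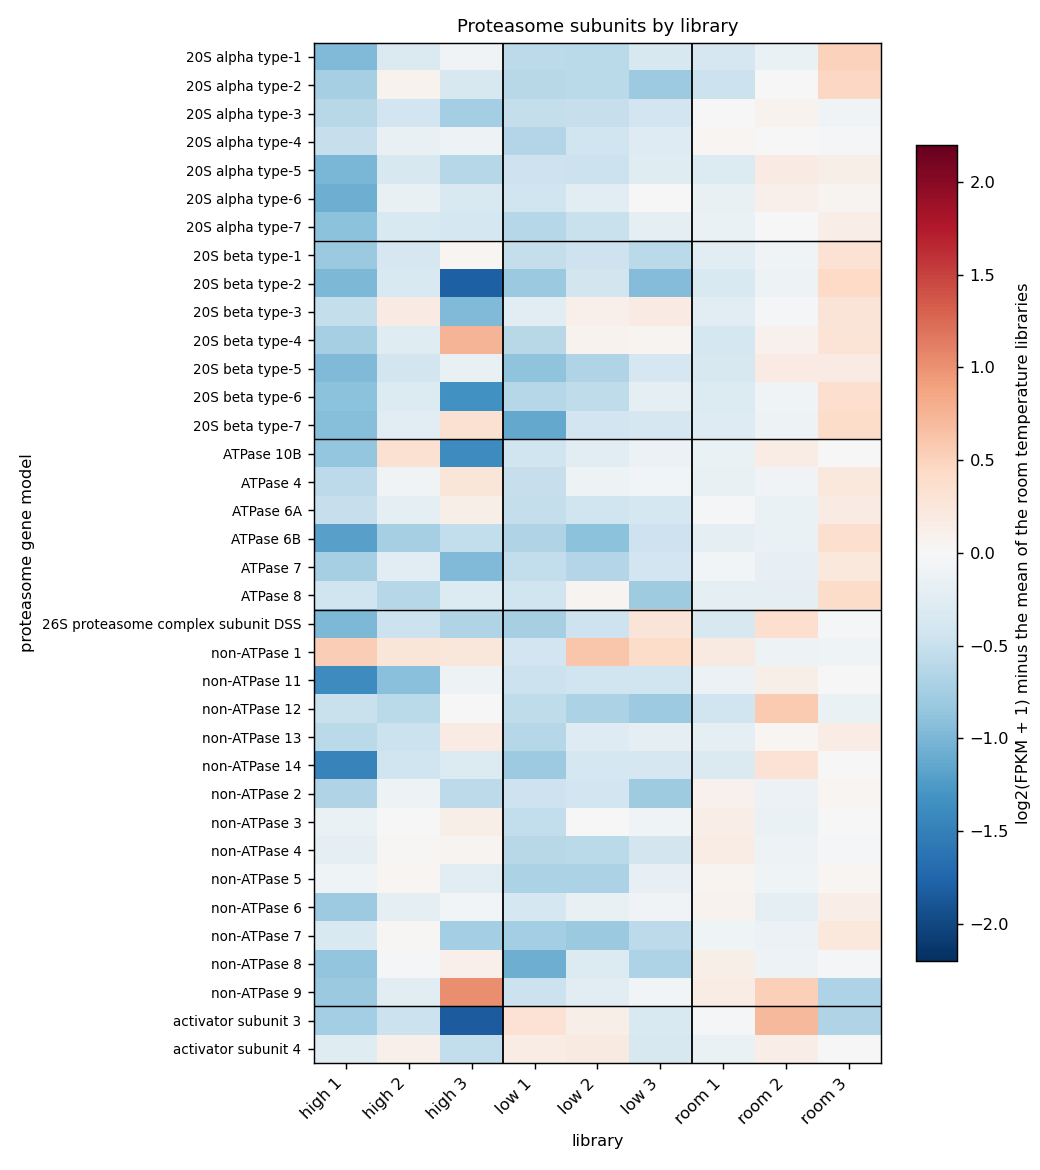
Each row is a proteasome gene model and each column a library; colour is log2(FPKM + 1) minus the mean of the 3 room temperature libraries. Most cells of the 6 libraries of the extremes are below 0 in the alpha ring, beta ring and cap ATPases, with non-ATPase subunit 1 the row above 0 in most of them.

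Chaperones past an unadjusted p mostly lay lower, several of them with little difference at high temperature. Of 78 models of heat shock proteins and co-chaperones, 61 lay below 0 (78.2%, against 59% of models with a protein name), with a median of -0.26. At an unadjusted p under 0.05, 13 lay lower (16.7%, against 4.49% of all models) and 1 higher (1.28%, against 3.68%), and 0 passed over all genes. The list's median was -0.15 at high and -0.33 at low temperature, and 1 of the 13 had an unadjusted p under 0.05 at each extreme, as did the 1 higher. Of the 13, 3 neighbouring HSP70 models described below and BAG family molecular chaperone regulator 3, an HSP70 co-chaperone, were near 0 at high temperature or much closer to it than at low temperature, the regulator with log2 changes of -0.14 at high and -1.48 at low temperature. Dividing by total reads left 4 lower. The 8 subunits of the cytosolic chaperonin, T-complex protein 1, which folds actin and tubulin, all lay below 0 with a median of -0.41, 7 of them at each extreme. Its epsilon subunit had 7.65, 9.34 and 10.5 FPKM at high and 9.43, 9.06 and 7.11 FPKM at low temperature, against 12.2, 14.4 and 11.1 FPKM at room temperature. Prefoldin subunit 2, of the complex that passes unfolded actin and tubulin to that chaperonin, had 5.8, 6.17 and 8.47 FPKM at high and 9.39, 7.99 and 4.64 FPKM at low temperature, against 12.2, 12.9 and 11.9 FPKM at room temperature (log2 change -0.75, limma adjusted p = 0.469). Both were without overlap between the groups. The chaperonin and prefoldin subunits were grouped after their values were seen.

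A row of 3 neighbouring HSP70 models on contig 769 lay low mainly at low temperature. Major heat shock 70 kDa protein Ab (evm.TU.Contig769.21) had 7.39, 12.6 and 7.03 FPKM at high temperature and 0.874, 1.32 and 0.136 FPKM at low temperature, against 10.4, 12.3 and 7.12 FPKM at room temperature. Its log2 change was -0.15 at high and -2.66 at low temperature, and the difference between the extremes passed (2.51, limma adjusted p = 0.0151), so its pooled change of -1.4 describes neither extreme. Its neighbour named heat shock 70 kDa protein had log2 changes of -0.46 at high and -2.25 at low temperature. The neighbour on the other side, heat shock protein 70 B2 (evm.TU.Contig769.22), had 6.41, 12.8 and 5.17 FPKM at high and 0.607, 1.87 and 0.994 FPKM at low temperature, against 7.62, 14.8 and 5.7 FPKM at room temperature, or log2 changes of -0.18 at high and -2.21 at low temperature. These models are similar and adjacent, so their reads may not be separable. The heat shock model highest above room temperature at both extremes, chosen after its values were seen, was a match to heat shock 70 kDa protein 12A (evm.TU.Contig1006.7), a distant HSP70 relative. It had 0.732, 2.23 and 4.89 FPKM at high and 0.544, 5.66 and 10.1 FPKM at low temperature, against 0, 0 and 0.413 FPKM at room temperature (limma adjusted p = 0.453), without overlap. The other 3 models named 12A had pooled log2 changes of 0.05, 0.01 and 0.15, so the difference lay in 1 model of that name. Of 26 endoplasmic reticulum folding models 1 lay lower and 0 higher at an unadjusted p, Derlin-1, which moves misfolded proteins out of that compartment (9.83 FPKM at the extremes, 16.7 at room temperature).

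Fuel metabolism held single enzymes that lay higher and single enzymes that lay lower at both extremes. Cytosolic phosphoenolpyruvate carboxykinase makes phosphoenolpyruvate from oxaloacetate in gluconeogenesis. It had 105, 95.9 and 63.6 FPKM at high and 122, 67.2 and 109 FPKM at low temperature, against 36.7, 33.5 and 52.4 FPKM at room temperature. The lowest library of the extremes lay above the highest room temperature library, and the mean was 2.29 times that of room temperature (log2 change 1.16, 95% interval 0.54 to 1.78, limma adjusted p = 0.377). Probable phosphoglycerate mutase, an enzyme of lower glycolysis by name and among the most abundant models, had 400, 261 and 571 FPKM at high and 639, 593 and 576 FPKM at low temperature, against 864, 1518 and 855 FPKM at room temperature. It too was without overlap, with a log2 change of -1.1 (limma adjusted p = 0.434). Octopine dehydrogenase, which closes anaerobic glycolysis by joining pyruvate to arginine, had 21.9, 17.8 and 18.8 FPKM at high and 7.45, 11.9 and 11.5 FPKM at low temperature, against 36.6, 40.1 and 20.2 FPKM at room temperature. There 1 high temperature library lay above the lowest room temperature library. Of 27 glycolysis and phosphagen models, 22 lay below 0 (81.5%, against 59% of models with a protein name), with a median of -0.23. At an unadjusted p under 0.05, 3 lay lower and 1 higher: those above and hexokinase-2, the entry enzyme of glycolysis. Hexokinase-2 had log2 changes of -0.39 at high and -1.45 at low temperature. Of 38 citric acid cycle models 31 lay below 0 (81.6%), with 1 past that p, a malate dehydrogenase match with log2 changes of -0.56 at high and -1.36 at low temperature. Of 42 oxidative phosphorylation models 34 lay below 0 (81%), with a median of -0.04 at high and -0.21 at low temperature. The 1 model past that p, alternative oxidase, which carries electrons to oxygen without pumping protons, had log2 changes of 0.06 at high and -1.82 at low temperature, and under quantile normalization the list's pooled median of -0.13 became -0.02.

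Breakdown of branched-chain amino acids was grouped after its values were seen. The branched-chain 2-oxoacid dehydrogenase, the committed mitochondrial step for leucine, isoleucine and valine, was lower in its alpha subunit, with 0.589, 0.845 and 2.06 FPKM at high and 1.98, 2.39 and 1.68 FPKM at low temperature, against 3.8, 4.32 and 3.52 FPKM at room temperature (log2 change -0.96, limma adjusted p = 0.377). The beta subunit had 0.898, 1.79 and 0.931 FPKM at high and 1.16, 1.6 and 0.82 FPKM at low temperature, against 2.85, 3.04 and 3.14 FPKM at room temperature (log2 change -0.89, limma adjusted p = 0.377). Neither overlapped between the groups. Its lipoamide acyltransferase core (-0.46), the short/branched chain acyl-CoA dehydrogenase (-0.64) and isobutyryl-CoA dehydrogenase (-0.7), which act at or after that step, also lay lower at an unadjusted p. The core had log2 changes of -0.70 at high and -0.22 at low temperature, and isobutyryl-CoA dehydrogenase -1.16 and -0.24. In both, the low temperature libraries overlapped those at room temperature. The short/branched chain enzyme had -0.85 at high and -0.44 at low temperature, without overlap. In all, 14 of the 16 models of the pathway lay below 0, beside 59% of models with a protein name. At each extreme 9 did so, and the share of all models that did was not counted. The median was -0.6 at high and -0.12 at low temperature, beside -0.03 and -0.04 over all models tested. No member passed over all genes.

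In fat metabolism 3 of 17 oxidation models lay lower, and 2 of 5 models of synthesis and its control lay higher, at an unadjusted p under 0.05. The shares over all models tested were 4.49% lower and 3.68% higher. Mitochondrial dienoyl-CoA isomerase, which handles unsaturated fatty acids, had 4.05, 4.6 and 2.48 FPKM at high and 4.5, 5.16 and 2.94 FPKM at low temperature, against 7.83, 9.33 and 8.24 FPKM at room temperature (log2 change -0.96, limma adjusted p = 0.377). The 3-ketoacyl-CoA thiolase match averaged 4.2 FPKM at the extremes and 8.27 FPKM at room temperature without overlap, and enoyl-CoA delta isomerase 1 averaged 1.58 FPKM at the extremes and 3.07 FPKM at room temperature. The trifunctional enzyme subunits, which carry out most of the cycle for long chains, had changes of 0.02 and -0.06, so the 3 do not stand for the cycle. Fatty acid synthase had 1.34, 1.55 and 2.22 FPKM at high and 1.32, 1.25 and 1.74 FPKM at low temperature, against 0.499, 0.349 and 0.508 FPKM at room temperature. The groups were well apart, with a mean 3.47 times that at room temperature (log2 change 0.81, limma adjusted p = 0.377). Insulin-induced gene 1 protein, a sterol sensor that retains SREBP in the endoplasmic reticulum, averaged 4.78 FPKM at the extremes and 1.87 FPKM at room temperature without overlap (limma adjusted p = 0.377). Acetyl-CoA carboxylase, which supplies malonyl-CoA, averaged 1.2 FPKM at the extremes and 0.628 FPKM at room temperature and overlapped (limma adjusted p = 0.661). The SREBP-1 match itself averaged 105 FPKM at the extremes and 102 FPKM at room temperature, and stearoyl-CoA desaturase 5, which makes monounsaturated fatty acids, 44.2 FPKM at the extremes and 40.1 FPKM at room temperature; both overlapped. The oxidation and synthesis groups were drawn up after their values were seen. Over the whole lipid list of 107 models 4 lay higher (3.74%) and 5 lower (4.67%), near the shares over all models.

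**Figure D4:**
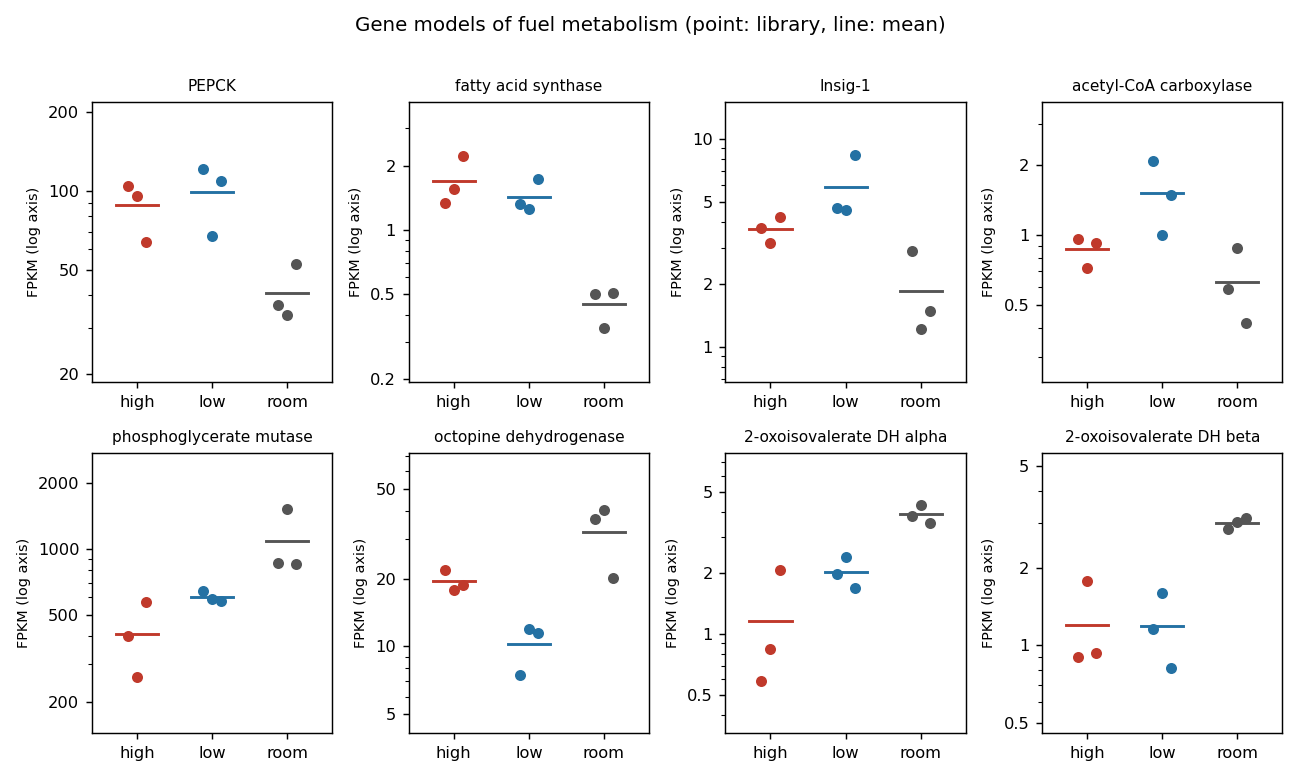
FPKM on a log axis in each library (points) with group means (lines) for 8 models of fuel metabolism, with high, low and room temperature from left to right. The carboxykinase, fatty acid synthase and Insig-1 libraries of the extremes lie above all room temperature libraries, while phosphoglycerate mutase and both 2-oxoisovalerate dehydrogenase subunits lie below them; acetyl-CoA carboxylase and octopine dehydrogenase overlap.

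Translation lists had medians below 0, by small amounts and not evenly at both extremes. Of 82 cytosolic ribosomal proteins 74 lay below 0 (90.2%, against 59% of models with a protein name). The median was only -0.18 (-0.04 under quantile normalization) and 0 passed even an unadjusted p. Of 58 mitochondrial ribosomal proteins, which make the mitochondrially encoded respiratory subunits, 46 lay below 0 (79.3%) and 4 lay lower at an unadjusted p (6.9%, against 4.49% of all models). Over the 3 other scalings the lowest count at that p was 2. Their median was -0.03 at high temperature, the same as all models there (-0.03), and -0.28 at low temperature. The largest was 28S ribosomal protein S23, with 5.25, 8.47 and 3.67 FPKM at high and 7.66, 7.79 and 5.51 FPKM at low temperature, against 12.6, 15.6 and 15.7 FPKM at room temperature. Every room temperature library lay above every other one (log2 change -1.12, limma adjusted p = 0.346). Among 54 translation factors 2 lay lower (3.7%), eIF5A-1 and eIF2 subunit 1, and among 30 aminoacyl-tRNA ligases 2 lay lower (6.67%), matches to the serine and tryptophan ligases. The ligases had a median of -0.04 at high and -0.28 at low temperature. Tryptophan--tRNA ligase averaged 21.3 FPKM at high and 13.8 FPKM at low temperature, against 26.7 FPKM at room temperature. Of 90 splicing models 3 lay lower (3.33%, below the share over all models), among them small nuclear ribonucleoprotein E (14.3 FPKM at the extremes, 25.2 at room temperature). In none of these lists did a member lie higher at an unadjusted p.

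A few matrix genes lay on the other side. Of 47 extracellular matrix models 4 lay higher (8.51%, against 3.68% of all models) and 1 lower (2.13%, against 4.49%) at an unadjusted p. The median was 0.11, and dividing by total reads left 1 higher. Collagen alpha-3(VI) chain, of the beaded microfibrils around muscle fibres, had 59.6, 39.8 and 42.7 FPKM at high and 49.8, 73.2 and 40.6 FPKM at low temperature, against 13, 27.1 and 34.7 FPKM at room temperature. Its lowest library at the extremes lay above its highest at room temperature (log2 change 1.07, limma adjusted p = 0.452). An alpha-4(VI) chain on contig 730 averaged 70.2 FPKM at the extremes and 46.1 FPKM at room temperature without overlap. An alpha-5(VI) chain on contig 1210 averaged 10.4 FPKM at the extremes and 20.1 FPKM at room temperature. All 10 models named as collagen VI were then listed, after their values were seen: 6 lay above and 4 below 0, and the 4 below 0 were all those on contig 1210. These models are close relatives, and reads shared between them could not be followed here.

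Innate immunity and cell death showed single genes rather than a group. Peptidoglycan-recognition protein SD, a sensor of bacterial wall in Drosophila, had 1.94, 1.42 and 0.751 FPKM at high and 1.7, 2.43 and 3.34 FPKM at low temperature, against 0.135, 0.689 and 0.158 FPKM at room temperature. Its groups did not overlap (log2 change 1.11, limma adjusted p = 0.37), but only 13 reads lay behind the room temperature values. Toll-like receptor 2 averaged 1.64 FPKM at high and 3.49 FPKM at low temperature, against 1.04 FPKM at room temperature. Over 72 innate immunity models 3 lay higher and 4 lower at an unadjusted p, near the 3.68% and 4.49% of all models. A putative inhibitor of apoptosis, of the family that blocks caspases, had 2.18, 2.01 and 1.86 FPKM at high and 1.72, 1.95 and 2.81 FPKM at low temperature, against 0.377, 0.782 and 1.06 FPKM at room temperature. Caspase-8, an initiator caspase, lay on the other side, with 2.84, 2.17 and 0.846 FPKM at high and 3.73, 2.35 and 2.02 FPKM at low temperature, against 4.15, 8.49 and 4.24 FPKM at room temperature. Both were without overlap and neither passed over all genes (limma adjusted p = 0.377 and 0.452). Of the 12 models named as inhibitors of apoptosis 10 lay above 0 but 1 passed an unadjusted p, and of 44 apoptosis models 1 lay higher and 2 lower, so the pair does not stand for the list.

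Detoxification held the most members past an unadjusted p, in both directions. Of 88 models 11 lay higher (12.5%, against 3.68% of all models) and 6 lower (6.82%, against 4.49%), and with total reads as divisor 6 and 3. At each extreme separately, 0 of the 11 and 2 of the 6 had an unadjusted p under 0.05. Cytochrome P450 enzymes, which oxidise foreign and endogenous lipids, made up 7 of those higher and 2 of those lower, of 37 tested. The P450 2H1 match had 3.99, 8.19 and 6.6 FPKM at high and 4.28, 0.374 and 0.336 FPKM at low temperature, against 0.184, 0.379 and 0.861 FPKM at room temperature, so only 1 of 3 low temperature libraries was above the room temperature range. The P450 3A2 match on contig 134 averaged 61 FPKM at the extremes and 39 FPKM at room temperature without overlap. Multidrug resistance-associated protein 7, an export pump, averaged 0.519 FPKM at the extremes and 2.21 FPKM at room temperature; low temperature replicate 2 stood apart at 1.65 FPKM. Of 35 antioxidant models 1 lay higher and 2 lower. Soma ferritin, which stores iron, had 30.6, 22.2 and 36 FPKM at high and 14.1, 11.1 and 17 FPKM at low temperature, against 13.2, 8.2 and 15 FPKM at room temperature, so that the high temperature libraries lay above all room temperature ones and the low temperature libraries overlapped them. Mitochondrial superoxide dismutase averaged 82.8 FPKM at the extremes and 140 FPKM at room temperature.

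**Figure D5:**
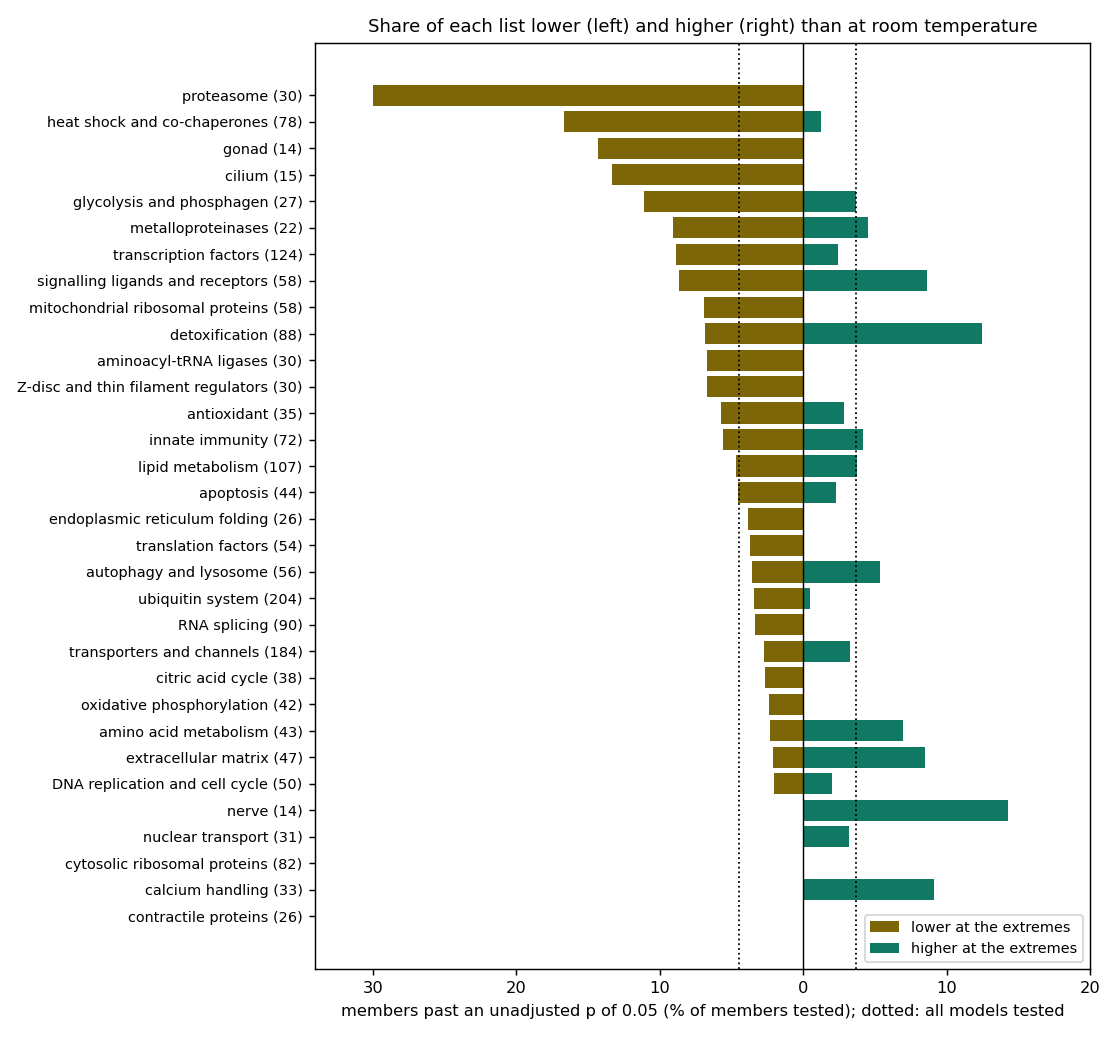
For each list with at least 10 tested members (number in brackets), the percentage of members past an unadjusted p of 0.05, lower at the extremes to the left and higher to the right; dotted lines mark all models tested, 4.49% lower and 3.68% higher. The proteasome (30% lower) and the chaperones (16.7% lower) extend farthest to the left, and contractile proteins and cytosolic ribosomal proteins have no bar.

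The contractile apparatus itself gave no member past an unadjusted p in either direction, 0 of 26, with a median of 0.03 (at least 1 higher under each of the 3 other scalings). Among 30 Z-disc and thin filament regulators 2 lay lower, LIM domain-binding protein 2 (10.5 FPKM at the extremes, 16 at room temperature) and the integrin-signalling protein PINCH-2 under its table name LIM and senescent cell antigen-like-containing domain protein 2 (8.25 FPKM at the extremes, 13 at room temperature). Of 33 calcium handling models 3 lay higher (9.09%, against 3.68% of all models) and 0 lower. None of the 3 had an unadjusted p under 0.05 at each extreme. A calmodulin match (1.74 FPKM at the extremes, 0.609 at room temperature) had log2 changes of 1.13 at high and 0.48 at low temperature. Its low temperature libraries overlapped those at room temperature. A calmodulin-responsive adenylate cyclase (2.91 FPKM at the extremes, 1.75 at room temperature) had 0.73 at high and 0.26 at low temperature. Another calmodulin match had 0.29 at high and 0.92 at low temperature. Potassium channel subfamily T member 1, a sodium-activated channel, had 4, 4.27 and 7.99 FPKM at high and 4.59, 4.64 and 7.3 FPKM at low temperature, against 1.75, 0.815 and 3.44 FPKM at room temperature. The groups did not overlap (limma adjusted p = 0.386). Over 184 transporters and channels 6 lay higher (3.26%) and 5 lower (2.72%), both below the shares over all models.

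Of 124 transcription factors 11 lay lower (8.87%, against 4.49% of all models) and 3 higher (2.42%, against 3.68%) at an unadjusted p. Over the 3 other scalings the lowest counts were 6 lower and 3 higher, and the median of -0.06 was 0 with total reads as divisor. At each extreme separately 1 of the 11 and 1 of the 3 had an unadjusted p under 0.05. Of the 11, 5 were near 0 at high temperature. CCAAT/enhancer-binding protein gamma had log2 changes of -0.02 at high and -2.31 at low temperature (difference 2.29, limma adjusted p = 0.0048). A runt-related transcription factor 1 match (evm.TU.Contig1068.49) had -0.06 at high and -1.92 at low temperature, and another (evm.TU.Contig1050.8) -0.04 at high and -1.26 at low temperature. Elk-3, an ETS factor, had -0.08 at high and -1.21 at low temperature, and Krueppel-like factor 12 had -0.03 at high and -1.13 at low temperature. Neuronal PAS domain-containing protein 4, an activity-induced factor in mammalian neurons, was counted in the nerve list and had 27.5, 33.3 and 18.7 FPKM at high and 23.3, 26.1 and 36.6 FPKM at low temperature, against 9.68, 15.3 and 18.1 FPKM at room temperature. With Notch homolog 2 it made up the 2 of 14 nerve models that lay higher, while the summed nerve markers overlapped between the groups as given above. In the cilium list 2 of 15 lay lower and in the gonad list 2 of 14, among them axonemal dynein light chain 4 and a putative vitellogenin receptor, and the part of cell make-up in these was not tested. In muscle sampled whole, fewer cells of a type and less RNA per cell cannot be told apart.

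The remaining lists held few members past an unadjusted p. Of 56 autophagy and lysosome models 3 lay higher and 2 lower, with a median of 0.04. Lysosomal alpha-mannosidase, which trims glycans in that organelle, averaged 25.4 FPKM at high and 30.4 FPKM at low temperature, against 12.9 FPKM at room temperature (limma adjusted p = 0.452). BLOC-1, a complex for lysosome-related organelles, was split: 1 model of its subunit 1 averaged 24 FPKM at the extremes and 6.6 FPKM at room temperature, and the other model of that name 20.1 FPKM at the extremes and 32.2 FPKM at room temperature. Of 43 amino acid metabolism models 3 lay higher and 1 lower. Phosphoserine aminotransferase of serine synthesis averaged 70.8 FPKM at high and 18.8 FPKM at low temperature, against 16 FPKM at room temperature, with log2 changes of 2.11 at high and 0.29 at low temperature. Pyrroline-5-carboxylate reductase 2, of proline synthesis, had 47, 32.5 and 74.7 FPKM at high and 33.5, 28.5 and 22 FPKM at low temperature, against 64.5, 2.55 and 2.99 FPKM at room temperature. Room temperature replicate 1 stood apart from the other 2 of its group (limma adjusted p = 0.562 over all 9 libraries), and without it the model passed. Exportin-1, the export receptor of nuclear proteins, averaged 3.51 FPKM at the extremes and 1.66 FPKM at room temperature with overlap, and was the 1 of 31 nuclear transport models past that p. Among 50 replication and cell cycle models 1 lay higher and 1 lower, and the digestive gland and shell lists, with 6 and 5 models tested, held none.

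The lowest p values among models without a protein name were of the size of the named ones. The unannotated evm.TU.Contig257.11 had 7.54, 23.3 and 76.6 FPKM at high and 1.09, 1.57 and 1.24 FPKM at low temperature, against 186, 91.3 and 79 FPKM at room temperature (log2 change -3.87, limma adjusted p = 0.0737). High temperature replicate 3 came close to the lowest room temperature library, and without it the model passed (limma adjusted p = 0.00764). It was also called with a minimum of 5 FPKM, with total reads as divisor, with array weights and by both voom fits. Higher at both were evm.TU.Contig479.56, at 5.46 ± 1.74 FPKM over the extremes and 0.942 ± 0.453 FPKM at room temperature (SD, n = 6 and 3), and evm.TU.Contig1003.17, at 5.8 ± 0.77 FPKM over the extremes and 2.27 ± 0.612 FPKM at room temperature. The pooled log2 change of evm.TU.Contig1003.17 was 1.07, and the next model on contig 1003, with a collagen repeat domain, lay higher too (log2 change 0.98). Of the 159 models with the same direction at both extremes, 8 pairs lay within 3 models of each other on a contig, and in 5 of the 8 both members shared a direction. In 1 such pair on contig 646 a model with an inhibitor of apoptosis domain averaged 98.9 FPKM at the extremes and 22 FPKM at room temperature, 3 models from the putative inhibitor described above. Of the 5 most abundant models with a pooled unadjusted p under 0.05 and the same sign at both extremes, only the unannotated evm.TU.Contig140.7 was among those 159. Probable phosphoglycerate mutase, described above, had a limma unadjusted p of 0.0502 at low temperature. An unannotated model on contig 58 had 0.201 there by the same test. GADD45 alpha, a growth arrest protein induced by DNA damage, averaged 153 FPKM at the extremes and 240 FPKM at room temperature, with overlap. Its log2 changes were -0.94 at high and -0.35 at low temperature. Kv channel-interacting protein 4 averaged 221 FPKM at the extremes and 314 FPKM at room temperature. Neither had an unadjusted p under 0.05 at each extreme.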

How the data were processed

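RNA-seq libraries of adductor muscle from 9 samples were used as deposited. Per the file headers the table holds FPKM, which the authors computed per gene model. HISAT2 2.0.4 and HTSeq 0.9.1 are the tools in the submitters' processing notes; the sources used here give neither genome build nor strand setting. FPKM times model length gave whole reads for 100% of values (largest distance 3.03e-09), so reads behind the values could be recovered. The divisor was not the total of assigned reads but a constant, 13972300, times a size factor per library. The size factor was the median ratio of a library's reads to the geometric mean over the 9 libraries, over models with reads in all. Recovered totals of 11716140 to 16229040 reads set the depth, and low FPKM values rest on few reads.

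Models with a mean of at least 1 FPKM over the 9 libraries (8624) were fitted on log2(FPKM + 1), pseudocount 1, with limma 3.58.1 (R 4.3.3; eBayes with trend) and 3 group means; the contrast was the mean of high and low temperature minus room temperature. Fold changes of low models are understated on this scale. A model counted as called when its Benjamini-Hochberg adjusted p was under 0.05. Confidence intervals are at 95%. The steps were tested on simulated data. Libraries were grouped by the labels.

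The members and the 34 gene lists were chosen with earlier results of these data known. List words were tidied against the protein names of the table. Named models were taken by rule: called models with a protein name, the same sign at both extremes and no overlap, up to 10 per direction by size, made up to 10 by lowest p. Added were, per list, the 2 of lowest p under 0.05 with the same sign, and the 2 of lowest p per direction with no protein name. The 5 most abundant of all tested models with an unadjusted p under 0.05 and the same sign were added too. Models named outside the rule, from the lists and the groups added later, are examples. Lists are described by counts and medians, with no set test. The alternatives changed the pseudocount (0.1), the filter (none, or at least 5 FPKM) or the model: total-read, upper quartile and quantile scaling, 2 pooled groups, robust variance, array weights, a replicate block, voom on recovered reads with and without quality weights, and leaving out each library. Python 3.11.15, pandas 2.3.3 and matplotlib 3.10.9 were used for summaries and figures.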

Additional observations from a re-analysis of the deposited data

Results flagged for a closer look

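Among the 74 named models, 6 had a library of the extremes far from the other 5, by a gap that took 0.653 to 0.737 of the range of the 6; chance flags about 1 in 20 groups. High temperature replicate 3 had 76.6 FPKM of the unannotated evm.TU.Contig257.11, and the next highest library 23.3 FPKM. Low temperature replicate 2 had 1.65 FPKM of multidrug resistance-associated protein 7 (evm.TU.Contig1067.42), and the next highest library 0.516 FPKM. Low temperature replicate 1 had 9.26 FPKM of the putative vitellogenin receptor, and the next 6.45 FPKM. Low temperature replicate 2 had 2.81 FPKM of exportin-1, the lowest, with the next lowest at 3.46 FPKM. High temperature replicate 2 was highest for testis-expressed sequence 10 protein, at 7.5 FPKM with the next at 3.65, and for eukaryotic translation initiation factor 2 subunit 1, at 4.92 FPKM with the next at 3.51.

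For 2 named models the high and low temperature groups differed from each other by the limma test over all genes. CCAAT/enhancer-binding protein gamma differed by 2.29 on the log2 scale (high minus low, limma adjusted p = 0.0048), with -0.02 at high and -2.31 at low temperature against room temperature. Major heat shock 70 kDa protein Ab differed by 2.51 (limma adjusted p = 0.0151), with -0.15 and -2.66. Their pooled changes therefore rest on low temperature.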

How the results depend on the processing

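The 22 alternatives left the direction of every named model they tested as it was, and changed which passed. The 2 models lower became 1, the GDF15 match, with a pseudocount of 0.1. With a minimum of 5 FPKM neither of the 2 was tested, and the 1 model called was evm.TU.Contig257.11. The count was 0 with no filter, upper quartile scaling, quantile normalization, 2 pooled groups, and without the third library of both extremes. Leaving out single libraries gave 0 to 1 lower and 0 to 1 higher. Array weights gave 1 higher, evm.TU.Contig479.56. With the replicate block 0 were called. Between groups, same-numbered libraries correlated at -0.103 to 0.242 and differently numbered ones at -0.224 to 0.12. In each group replicate 1 had the highest size factor and replicate 3 the lowest. The labels do not say what a shared number marks, so the main fit did not take the numbers as pairs. Total reads and both voom fits called evm.TU.Contig257.11 and the GDF15 match, not mig-17. Models without overlap, 144 higher and 170 lower, became 298 and 298 with no filter, 28 and 72 at 5 FPKM, 90 and 80 with total reads, 175 to 367 and 190 to 467 without single libraries, and 357 and 494 without both replicates 3. Models past an unadjusted p at each extreme, 87 higher and 72 lower, became 22 and 32 at 5 FPKM, 55 and 27 with total reads, 156 and 147 with array weights, and 180 and 45 with quality-weighted voom; 227 lower with no filter, 21 lower with voom, and without single libraries 58 to 120 higher and 46 to 103 lower, and 101 higher and 104 lower without both replicates 3. Of the unadjusted calls, 45% were higher, against 56.4% with total reads, 58.4% with the upper quartile, 56.3% with voom, 66.9% with quality-weighted voom and 32.1% at 5 FPKM; the cause was not tested. The number of the 34 lists with a median below 0 was 22, and 17 to 26 over the alternatives. Low reads limit models near 1 FPKM.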
